A study of Mus musculus with 9 samples.

Results

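The genes described here are 9 genes of hepatic gluconeogenesis and of the control of that pathway by the coactivator PGC-1alpha and the acetyltransferase GCN5. They are the enzymes Pck1, Fbp1, G6pc, Got1 and Mdh1, the transporter Slc37a4, and the regulators Ppargc1a, Foxo1 and Kat2a, out of 27179 genes in the deposited table. They were picked by symbol with earlier results of the same comparison known, so their differences between the groups are given as a description, and the calls made by the fits over all genes are listed once and support nothing. Glucose-6-phosphatase is listed in the table under its older symbol, G6pc. All 9 passed the filter of a mean of at least 10 normalized counts, which left 12993 genes for the fit.

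All animals were C57BL/6J mice of genotype WT with free access to normal chow, injected behind the eye at 17 months of age with 3e+11 vector genomes of AAV8. The vector carried the nuclease saCas9 under the hepatocyte promoter TBG and a U6-driven guide RNA, so the controls also carried the vector and the nuclease. A piece of the liver lobe that the labels call the m-lobe was frozen 3 weeks later. The guide was directed against the Rosa26 locus (sgRosa26, n = 4, libraries A to D) or against Ccnd1 (sgCcnd1, n = 5, libraries E to I); the letters follow column order and are only names. Editing was thus aimed at hepatocytes of adult animals, while RNA of the whole liver piece was sequenced, so that a smaller number of cells of a type and less RNA per cell cannot be told apart. The labels give no sex and no hour of harvest.

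Gluconeogenesis makes glucose from lactate, alanine, other amino acids and glycerol, and in the fasted liver it supplies the brain and red cells. Glucagon, through cyclic AMP and CREB, switches on the PGC-1alpha gene Ppargc1a, and PGC-1alpha together with FOXO1 and HNF4A raises transcription of Pck1 and G6pc, while insulin acts against it. GCN5, encoded by Kat2a, acetylates PGC-1alpha and lowers its activity. Cyclin D1 with CDK4 is known to phosphorylate GCN5 and so to restrain gluconeogenesis. These last steps act on proteins, which RNA sequencing does not measure.

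Promoter stretches of Pck1, Ppargc1a and G6pc are shown because the RNA levels of Pck1 and Ppargc1a had a high correlation between animals of a group (r = 0.89) and those of Pck1 and G6pc did not (r = -0.20). Each is the strand of the gene, read 5′ to 3′, from RefSeq's promoter table (GRCm38.p6), and ends before the first start site annotated by RefSeq or GENCODE. Capitals mark TTACGT, 6 letters shared by the 3 stretches and found in cyclic AMP response elements, the half-site TGACG of such elements in either orientation, and TGTTTTG, a core of insulin response elements. The stretches are chr2:173152823-173153047 on the plus strand, chr5:51567727-51567975 on the minus strand and chr11:101367466-101367560 on the plus strand.
Pck1: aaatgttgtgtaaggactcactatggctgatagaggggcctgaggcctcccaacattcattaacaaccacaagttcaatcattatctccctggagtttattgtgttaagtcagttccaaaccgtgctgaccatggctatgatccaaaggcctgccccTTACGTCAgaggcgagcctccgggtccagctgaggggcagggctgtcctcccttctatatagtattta
Ppargc1a: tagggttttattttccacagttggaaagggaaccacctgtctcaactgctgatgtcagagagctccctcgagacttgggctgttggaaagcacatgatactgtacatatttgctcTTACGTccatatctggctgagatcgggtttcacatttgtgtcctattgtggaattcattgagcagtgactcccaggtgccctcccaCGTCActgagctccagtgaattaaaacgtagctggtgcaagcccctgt
G6pc: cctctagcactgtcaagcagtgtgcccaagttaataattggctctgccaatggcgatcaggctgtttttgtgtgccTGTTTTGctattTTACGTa

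The motifs were searched on both strands in the 250 bases before the RefSeq start of each gene, and were chosen after the sequences had been read. TTACGT or its complement was present in Pck1 (bases 93 to 88 before the start), Ppargc1a (135 to 130), G6pc (162 to 157, with the complement overlapping it) and 1 of the 3 annotated starts of Slc37a4. It is held by 2.40% of 32851 promoter windows of this length. TGACG or its complement, which in Pck1 overlaps TTACGT, was present in Pck1, Ppargc1a, Kat2a and 2 of the 3 Slc37a4 windows, and in 17.8% of all windows. TGTTTTG or its complement was present in G6pc, 174 to 168 bases before the start, and in 5.56% of all windows. The TATA box TATAAA was present in G6pc and in 1 Slc37a4 window, against 12.4% of all, and the FOXO core GTAAACA in none of the 9 genes' windows, against 3.17% of all. Fbp1, Foxo1, Got1 and Mdh1 held none of the 5 motifs in these windows, which says nothing about elements outside them.

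The libraries held 10840595 to 20176201 reads assigned to genes. Ccnd1 (chr7:144929931-144939925, minus strand, overlapped by Lto1 on the opposite strand), the targeted gene, was at 684, 800, 625 and 867 normalized counts in libraries A to D and at 428, 347, 370, 339 and 325 in libraries E to I, so that all 5 sgCcnd1 values lay below all controls. It fell to 48.6% of the control mean (log2 fold change -1.03, SE 0.11, limma adjusted p = 0.0116). The Y-linked gene Ddx3y ranged from 810 to 1154 normalized counts over 8 libraries and was at 2.00 in library H, which is labelled like the rest. Xist was at 2.00 in H and at 0 to 3.92 in the other libraries. H also had the lowest share of reads in the 10 most abundant genes (19.5%). The adjusted p of Ccnd1 was above 0.05 when any 1 of 5 libraries was removed, namely B (0.0857), D (0.0558), F (0.0587), H (0.0612) or I (0.0626). The values of the 9 genes without H are given where they moved. All 7 hepatocyte markers, such as Alb, had reads in every library, with a summed level of 1760955 to 2085609 normalized counts in sgRosa26 and 1672518 to 2143437 in sgCcnd1.

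With limma, adjusted over all 12993 genes, 0 genes were called higher (0% of those tested) and 1, Ccnd1, lower (0.00770%). Of the 9 genes, 0 were called, and 3 (Got1, Slc37a4 and Fbp1) had an unadjusted p under 0.05, which 5.22% of all genes had in the higher direction and 5.74% in the lower. By edgeR on recovered reads 0 of the 9 were called. DESeq2 called 1 of the 9, Got1, beside 0.316% of all genes higher and 0.585% lower (0.900% in either direction). Nothing is read from these counts, since the genes were chosen from this comparison. In sgCcnd1, 8 of the 9 were higher on average and 1, Kat2a, was lower, with a median log2 fold change of 0.24 beside 0.01 over all genes tested.

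**Figure D1:**
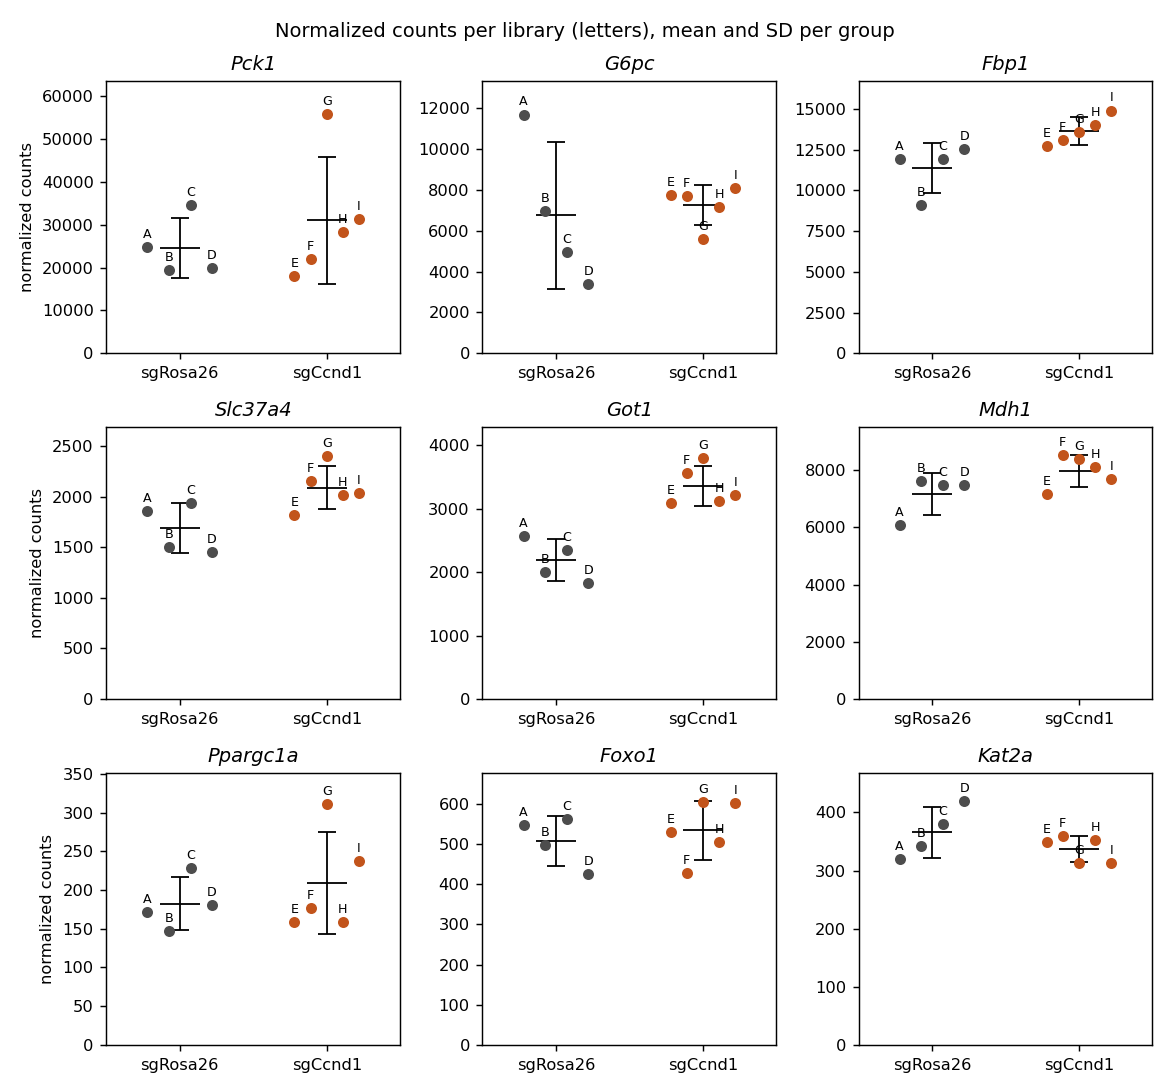
Normalized counts (vertical axes, from 0) of the 9 genes in each library, with letters for libraries, and the mean and SD of each group as horizontal line and bars. Got1 and Fbp1 are the 2 genes whose groups do not overlap (1.92% of all genes in the higher and 1.97% in the lower direction), library G stands highest for Pck1 and Ppargc1a, and G6pc spreads from 3387 to 11692 among the controls.

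Among the enzymes that feed carbon into the path, Got1 stood out in the size of its difference. Got1 (Entrez 14718, chr19:43499752-43524605, minus strand, 9 exons), the cytosolic aspartate aminotransferase, turns aspartate into oxaloacetate and works in the malate-aspartate shuttle. It was at 2571, 2006, 2345 and 1829 normalized counts in libraries A to D and at 3084, 3566, 3800, 3127 and 3210 in libraries E to I. The lowest sgCcnd1 animal was above the highest control, a separation seen in the higher direction in 1.92% of all genes. The means were 2188 ± 334 (SD, n = 4) and 3357 ± 312 (SD, n = 5), a ratio of 1.53, with a log2 fold change of 0.63 (SE 0.11). Leaving out any 1 library moved it between 0.54 and 0.71.

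Mdh1 (Entrez 17449, chr11:21556787-21572367, minus strand, 9 exons), the cytosolic malate dehydrogenase that turns malate exported from mitochondria back into oxaloacetate, had a smaller difference. It was at 6086, 7633, 7494 and 7479 normalized counts in the controls and at 7180, 8525, 8386, 8125 and 7692 in sgCcnd1. Library A was low among the controls, and 4 of 5 sgCcnd1 libraries were above the highest control. The difference in log2 level was 0.16 (SE 0.09), 0.08 without library A and 0.05 with quantile normalization.

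The enzyme that commits oxaloacetate to glucose showed a wide spread between animals. Pck1 (Entrez 18534, chr2:173153048-173159273, plus strand, 10 exons), the cytosolic phosphoenolpyruvate carboxykinase, was at 24699, 19348, 34507 and 19983 normalized counts in libraries A to D. In libraries E to I it was at 17921, 21902, 55746, 28227 and 31269. The highest and the lowest value of all 9 libraries were thus both in the sgCcnd1 group, G being 3.11 times E. The difference in log2 level was 0.26 (SE 0.28), and 0.02 without library G, so that the difference rested on that animal. It was 0.16 without B or with quantile normalization, 0.17 without D and 0.43 without C or E.

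Fbp1 (Entrez 14121, chr13:62864753-62888282, minus strand, 7 exons), fructose-1,6-bisphosphatase, catalyses the step that opposes phosphofructokinase. It was at 11943, 9112, 11934 and 12541 normalized counts in the controls and at 12726, 13074, 13607, 14020 and 14911 in sgCcnd1. The groups did not overlap, although the lowest sgCcnd1 value, in E, was close to the highest control, in D. The difference in log2 level was 0.27 (SE 0.11), and 0.17 without library B, the lowest control. The spread was small in both groups, at 13.5% of the mean in sgRosa26 and 6.24% in sgCcnd1.

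Release of glucose depends on a pair of proteins of the endoplasmic reticulum, and their spreads were unlike. Slc37a4 (Entrez 14385, chr9:44396852-44402968, plus strand), which carries glucose-6-phosphate into the reticulum, was at 1854, 1502, 1942 and 1456 normalized counts in the controls and at 1823, 2159, 2398, 2020 and 2034 in sgCcnd1. Of the 5 sgCcnd1 libraries 4 were above all controls, and E lay among them. The difference in log2 level was 0.31 (SE 0.11). G6pc (Entrez 14377, chr11:101367561-101377903, plus strand, 5 exons), the catalytic subunit that hydrolyses glucose-6-phosphate there, was at 11692, 6971, 4971 and 3387 normalized counts in A to D and at 7733, 7711, 5595, 7182 and 8088 in E to I.

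All 5 sgCcnd1 values of G6pc lay inside the range of the controls, which was 3.45-fold wide against 1.45-fold in sgCcnd1. Its coefficient of variation was 53.3% in sgRosa26 and 13.6% in sgCcnd1. The difference in log2 of G6pc was 0.24 (SE 0.27), and it was -0.04 without library D and 0.56 without library A. The direction of G6pc thus changed with 1 control animal, D, and its size with A and with C (0.15 without C, and also with quantile normalization). The fits of recovered reads gave 0.09 by edgeR and 0.10 by DESeq2, closer to the ratio of the means, 1.07.

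The regulators had small differences in mean. Ppargc1a (Entrez 19017, chr5:51454250-51567726, minus strand), the gene of PGC-1alpha, was at 172, 147, 229 and 181 normalized counts in the controls and at 159, 177, 311, 159 and 237 in sgCcnd1. Library G was again the highest and C the highest control, and 3 of the 5 sgCcnd1 values lay inside the range of the controls. The difference in log2 of Ppargc1a was 0.16 (SE 0.20), 0.01 without library G, 0.07 without B, 0.10 without I, 0.25 without E or H and 0.28 without C. With 140 to 318 reads per library, counting alone gave an error of up to 8.45% of its value.

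Foxo1 (Entrez 56458, chr3:52268336-52353221, plus strand), the forkhead factor that insulin signalling keeps out of the nucleus, was at 547, 497, 561 and 425 normalized counts in the controls and at 530, 429, 604, 504 and 602 in sgCcnd1. Its difference in log2 level was 0.07 (SE 0.12), with a range from -0.01 (without D) to 0.14 (without F) when 1 library was left out, and 0.03 with quantile normalization or 75th percentile scaling. An annotated gene on the opposite strand, Gm20402, overlaps Foxo1, and since use of strand is not stated, its reads cannot be told apart from those of Foxo1. Kat2a (Entrez 14534, chr11:100704746-100712465, minus strand), which encodes GCN5, was at 320, 342, 380 and 421 normalized counts in the controls and at 349, 359, 313, 352 and 312 in sgCcnd1. Here 2 sgCcnd1 libraries, G and I, lay below the lowest control, and the difference in log2 level was -0.11 (SE 0.10), with -0.04 without library D and -0.17 without library A.

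**Figure D2:**
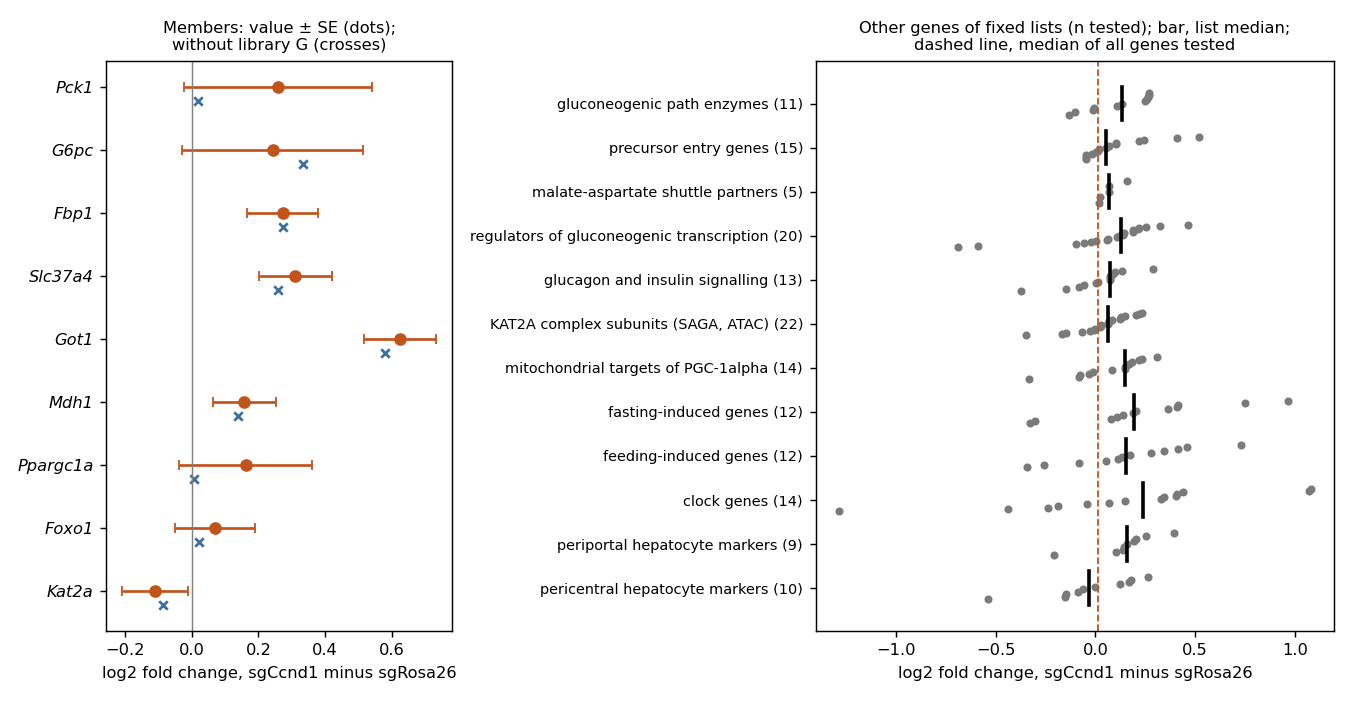
Left, log2 fold change (sgCcnd1 minus sgRosa26) of the 9 genes with its standard error, and as crosses the value without library G; right, the other genes of 12 fixed lists as dots with the list median as a bar and the median of all genes tested as a dashed line. Got1 lies farthest from 0 at 0.63, and Pck1 and Ppargc1a move to 0.02 and 0.01 without library G.

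Levels were compared between genes as normalized counts per kilobase of annotated exon. In the controls the order was Pck1 (9257 ± 2631 per kilobase, SD, n = 4), Fbp1 (7696 ± 1041), Mdh1 (3380 ± 343), G6pc (2798 ± 1493), Got1 (1063 ± 162), Slc37a4 (639.8 ± 92.9), Kat2a (120.0 ± 14.6), Foxo1 (58.6 ± 7.09) and Ppargc1a (28.2 ± 5.30). The order of means was the same in sgCcnd1. Neighbours in this order whose libraries overlapped were Pck1 and Fbp1 in both groups, and Mdh1 and G6pc in the controls alone; no test of that difference was run. The 3 regulators were thus the 3 least abundant of the 9 genes per kilobase in both groups, and Ppargc1a was the lowest.

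Variation inside the groups was examined next, because it does not use the difference by which the genes were chosen. For each of the 45 pairs of the 9 genes and Ccnd1, the log2 values were centred on their group means and correlated over the 9 libraries, with an exact two-sided permutation of libraries within each group (2880 arrangements, smallest p 0.000347). No pair passed 0.05 after adjustment over the 45 pairs (0 of 45), and 5 had an unadjusted p under 0.05. The pairs with the smallest p were Slc37a4 with Got1, Pck1 with Ppargc1a, and Pck1 with Slc37a4.

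The highest correlation was that of Slc37a4 with Got1 (r = 0.92, exact permutation p = 0.00382, adjusted 0.141; Spearman's rho 0.93, exact permutation p = 0.00694, adjusted 0.312), with r = 0.92 among the controls and 0.93 in sgCcnd1. Without C and G, the libraries farthest from the median of Slc37a4, r was 0.94. Among the 8913 other genes that have a symbol and a mean of at least 100, Slc37a4 ranked number 9 by likeness to Got1.

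Pck1 with Ppargc1a came next (r = 0.89, exact permutation p = 0.00625, adjusted 0.141; rho 0.78, exact permutation p = 0.0389, adjusted 0.378). The correlation was 0.88 among the controls and 0.89 in sgCcnd1, and 0.74 without G and E. Leaving out library G alone gave 0.76, and the next lowest value was 0.87, without C. Pck1 with Slc37a4 had r = 0.79 (exact permutation p = 0.0115, adjusted 0.172; rho 0.72, exact permutation p = 0.0319, adjusted 0.378), and 0.68 without G and E.

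No such relation was detected between G6pc and Pck1. Their within-group r was -0.20 (exact permutation p = 0.555, adjusted 0.753; rho -0.27, exact permutation p = 0.455, adjusted 0.719) and 0.06 without G and E, with 0.06 among the controls and -0.82 in sgCcnd1. The correlation of G6pc with Ppargc1a was -0.35 (exact permutation p = 0.270, adjusted 0.604; rho -0.38, exact permutation p = 0.264, adjusted 0.566), and -0.06 without G and C. In library G, where Pck1 and Ppargc1a were at their highest, G6pc was the lowest of its group, and in library A, where G6pc was highest of all, Pck1 was near its group mean. Pck1 and G6pc share regulators in textbook accounts. Whether their correlation differs from that of Pck1 with Ppargc1a was not tested.

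**Figure D3:**
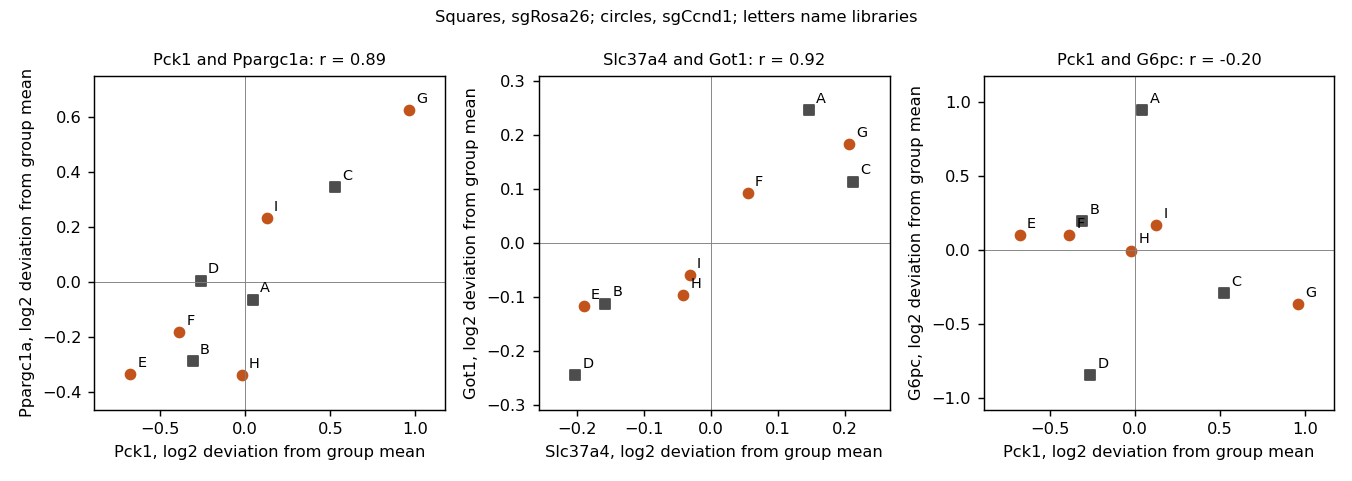
Deviation of each library from its group mean on the log2 scale for 3 pairs of genes, with squares for sgRosa26 and circles for sgCcnd1. Pck1 with Ppargc1a (r = 0.89) and Slc37a4 with Got1 (r = 0.92) line up in both groups, and Pck1 with G6pc (r = -0.20) does not.

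Within the groups, Kat2a had its lowest r with Foxo1 (r = -0.72, exact permutation p = 0.0295, adjusted 0.332; rho -0.77, exact permutation p = 0.0250, adjusted 0.378; -0.68 without A and I). With its partner in the acetylation of PGC-1alpha, Ppargc1a, it had r = -0.25 (exact permutation p = 0.476, adjusted 0.729; rho -0.27, exact permutation p = 0.487, adjusted 0.719), and -0.20 without G and C. This pooled value combined 0.44 among the controls with -0.89 in sgCcnd1, and the difference between the groups was not tested. The value for Ccnd1 farthest from 0 was that with Slc37a4 (r = -0.74, exact permutation p = 0.0719, adjusted 0.463; rho -0.73, exact permutation p = 0.0743, adjusted 0.378; -0.86 without C and G). That value was -0.98 among the 4 controls and -0.38 among the 5 sgCcnd1 libraries, and the difference between the groups was not tested.

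**Figure D4:**
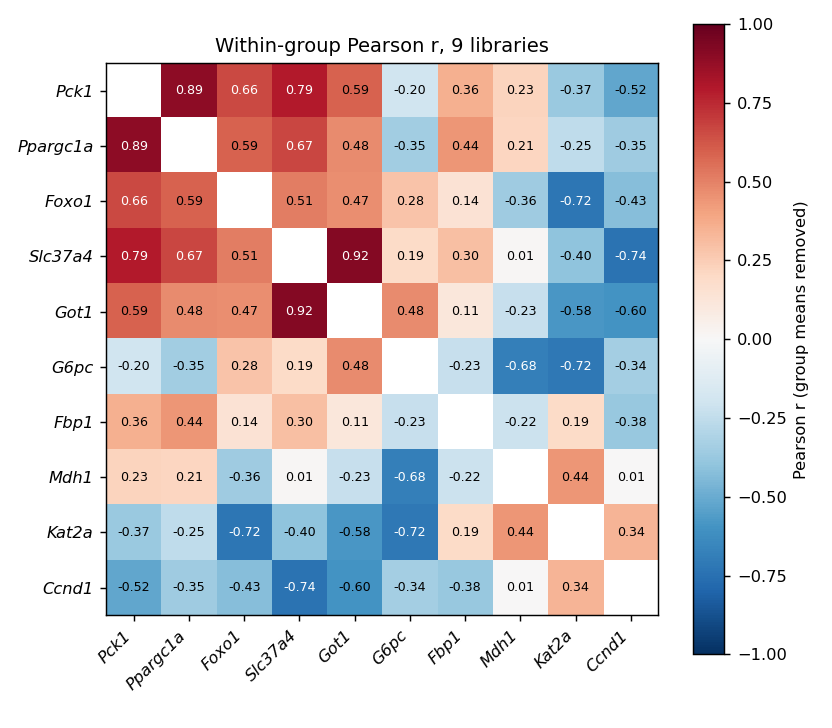
Pearson r of each pair of the 9 genes and Ccnd1 over 9 libraries after removal of the group means, as numbers and colours from -1 to 1. The highest value is 0.92 for Slc37a4 with Got1, G6pc is negative with Pck1 and Ppargc1a, and none of the 45 pairs passed 0.05 after adjustment.

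The genes most like each of 4 members were named by the same within-group r over 9 libraries, as a description. For Ppargc1a they were Lgr4 (0.97), Alg13 (0.94) and Sh3bp5 (0.94), with Pck1 at rank 21 of 8913. For Pck1 they were Eps15l1 (0.96), Junb (0.96) and Tbc1d8 (0.95), with Ppargc1a at rank 28. Junb, an immediate early transcription factor of the AP-1 family, was at 312, 314, 435 and 285 normalized counts in A to D and at 232, 292, 578, 317 and 311 in E to I, highest in C and G as Pck1 was. For G6pc they were Pafah1b1 (0.95), Slc25a25 (0.94) and Atic (0.94), and Slc25a25, a mitochondrial carrier of ATP-Mg and phosphate, ran from 789 in D to 4273 in A, the same ends as G6pc. For Got1 they were Ctsl (0.96), Cwf19l2 (0.95) and Klhdc2 (0.95). These are the highest of 8913 values, picked for being so.

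The rest of the pathway was described by 7 further lists. Of their 100 genes tested, 0 were called by limma or edgeR and 2, Pcx and Sds, by DESeq2, which called 0.900% of all genes. An unadjusted limma p under 0.05 was reached by 11 in the higher and 4 in the lower direction, against 5.22% and 5.74% of all genes. Higher on average in sgCcnd1 were 71 of the 100, against 52.9% of all genes tested, with a median of 0.07. The groups did not overlap in 6 that were higher and 1 that was lower, beside 1.92% and 1.97% of all genes. That share is a description of these lists, and the genes of a pathway are not independent.

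Among the other enzymes of the path itself, 7 of 11 tested were higher on average, with a median log2 fold change of 0.13. Pcx, the mitochondrial pyruvate carboxylase that makes the oxaloacetate from which gluconeogenesis starts, was at 7334, 6634, 7542 and 7568 normalized counts in the controls and at 8450, 8701, 8943, 8464 and 9170 in sgCcnd1. Its groups did not overlap (log2 fold change 0.27, limma adjusted p = 0.282; DESeq2 adjusted p = 0.0226). Pgam1, phosphoglycerate mutase, was at 0.26, also with no overlap (limma adjusted p = 0.296). Pgk1, phosphoglycerate kinase, was at 0.27 with overlapping groups (limma adjusted p = 0.334). Pgam1 and Pgk1 work in both glycolysis and gluconeogenesis. Fbp2, the muscle isoform, was too low to be tested.

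Genes through which precursors enter gave 11 of 15 higher and a median of 0.05, which was -0.01 with quantile normalization, 0.02 with 75th percentile scaling, 0.03 without C or with edgeR, 0.08 without H and 0.10 without D. Sds, serine dehydratase, which makes pyruvate from serine, was at 2500, 1878, 2322 and 1879 normalized counts in the controls and at 2245, 3166, 3203, 3350 and 3483 in sgCcnd1 (log2 fold change 0.52, limma adjusted p = 0.253; DESeq2 adjusted p = 0.0394). Library E lay among the controls for Sds, as it did for Slc37a4. Its relative Sdsl was at 0.41 with no overlap (limma adjusted p = 0.279), and the amino acid transporter Slc38a4 by 0.24 (limma adjusted p = 0.468). The partners of Got1 and Mdh1 in the malate-aspartate shuttle had smaller differences than Got1, and all 5 were higher on average, with a median of 0.07 that was below 0 without A or B, 0.01 without F, 0.04 without I, 0.02 with quantile normalization and 0.03 with 75th percentile scaling. The mitochondrial aspartate-glutamate carriers Slc25a13 and Slc25a12 were at 0.16 and 0.07 and the oxoglutarate carrier Slc25a11 at 0.07 (limma adjusted p from 0.556 to 0.903).

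Transcription factors and cofactors of the pathway gave 15 of 20 higher and a median of 0.13, which was 0.04 without library B and 0.07 with quantile normalization. Creb1, which carries the cyclic AMP signal to Pck1 and Ppargc1a, was at 0.25 with no overlap between groups (limma adjusted p = 0.354). Foxo3, a relative of Foxo1, was at 0.46 (limma adjusted p = 0.363), and the glucocorticoid receptor gene Nr3c1 at 0.21 (limma adjusted p = 0.372). Glucagon and insulin signalling genes gave 9 of 13 higher and a median of 0.07 (0.03 without B or H, 0.05 without F, 0.04 with 75th percentile scaling, 0.0043 with quantile normalization), with the insulin receptor substrate Irs1 at -0.37 (limma adjusted p = 0.426), the kinase Pdpk1 at 0.29 (0.446) and the protein kinase A subunit Prkacb at 0.10 (0.637).

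GCN5 works in the SAGA and ATAC complexes. Of 22 other genes listed for them, which are not a full set of subunits and include Kat2b, 15 were higher on average. Their median was 0.06 (0.03 without B or with 75th percentile scaling, 0.04 without H or with quantile normalization). Tada2a, an adaptor of the ATAC complex, was at 125, 126, 120 and 106 normalized counts in the controls and at 97.6, 97.6, 83.2, 95.0 and 93.7 in sgCcnd1. All 5 sgCcnd1 libraries lay below all controls (log2 fold change -0.35, limma adjusted p = 0.306). Supt3, of SAGA, was at 0.22 (limma adjusted p = 0.578), and Trrap, the large scaffold of SAGA, at 0.15 (0.590). Mitochondrial genes known as targets of PGC-1alpha gave 9 of 14 higher and a median of 0.15 (0.07 without library A, 0.08 with quantile normalization), with Cox4i1 at 0.31, Sirt3 at 0.22 and Ucp2 at -0.34 (limma adjusted p from 0.334 to 0.455).

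Feeding, fasting and the hour of day are known to move these genes, so lists for each were read beside them. Fasting-induced genes gave 10 of 12 higher (median 0.19), with Angptl4 at 0.97, Lpin1 at 0.41 and Plin2 at 0.20. Angptl4, a lipase inhibitor raised by fasting, was lowest in library A, at 227 normalized counts, and highest, at 1837, in G, the animal with the highest Pck1 and Ppargc1a. Feeding-induced genes gave 9 of 12 higher (median 0.15), with Me1 at 0.73, Pklr at 0.46 and Acly at 0.42. Thus both lists had the same sign, and 0 genes of either were called by limma, edgeR or DESeq2. At an unadjusted limma p under 0.05 there was 1 fasting-induced gene of 12 and there were 2 feeding-induced genes of 12, all higher, against 5.22% of all genes. The fasting median was 0.03 without A, 0.32 without D and 0.30 without E, and 0.11 by edgeR or DESeq2. The feeding median was 0.04 without B, 0.05 without F, 0.07 without E, 0.24 without C and 0.27 without H. Quantile normalization gave 0.13 for fasting and 0.07 for feeding.

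Clock genes gave 9 of 14 higher (median 0.24, and 0.15 without G) with Npas2 at -1.29, Nr1d2 at 0.44 and Ciart at 1.07. Npas2, a partner of BMAL1, was at 83.6, 178, 96.7 and 106 normalized counts in the controls and at 72.4, 48.3, 36.2, 51.0 and 28.4 in sgCcnd1, with no overlap (limma adjusted p = 0.225; DESeq2 adjusted p = 0.00340). By limma 0 clock genes were called, and an unadjusted p under 0.05 was reached by 5 that were higher and 2 that were lower, against 5.22% and 5.74% of all genes. The part of feeding state or harvest hour in the values of the 9 genes was not tested.

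By zone, 8 of 9 markers of periportal hepatocytes, where gluconeogenesis is concentrated, were higher on average (median 0.16, and 0.07 with quantile normalization), among them Asl at 0.20, Cps1 at 0.40 and Gls2 at 0.19. Of pericentral markers 4 of 10 were higher (median -0.03, with the sign changing when B, C, F or I was left out), with Lgr5 at -0.54, Tbx3 at 0.26 and Gulo at -0.15. Their limma adjusted p-values ran from 0.358 to 0.642.

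Markers of other cells were mostly lower in sgCcnd1 on average. Higher were 3 of 10 for Kupffer cells and macrophages (median -0.11), 0 of 4 for T and NK cells (-1.43), 0 of 7 for B and plasma cells (-0.41), 3 of 8 for endothelium (-0.02), 1 of 8 for stellate cells (-0.47), 2 of 5 for cholangiocytes (-0.31) and 2 of 4 for red cells (0.05). By comparison, 2 of 7 hepatocyte markers were higher (-0.03), with the sign changing without H. The sign for endothelium changed without C, F or H, and that for red cells without A, F or G and with edgeR or DESeq2. On leaving out 1 library, the median farthest from 0 was -0.14 for endothelium (D) and -0.08 for hepatocytes (F). It was -0.10 for the pericentral markers (G). By limma or edgeR 0 genes of these lists were called. All 4 T and NK cell genes tested had an unadjusted limma p under 0.05, against 5.74% of all genes in the lower direction. Only these 4 of the 8 listed passed the filter, whose mean includes the controls, where they were higher. Such a p in the lower direction was also reached by 3 of 8 stellate cell and 2 of 10 macrophage genes. It was reached by 1 of 7 B and plasma cell and 1 of 5 cholangiocyte genes. DESeq2, which called 0.585% of all genes lower, called 1, the macrophage gene Cd68 (log2 fold change -0.71, DESeq2 adjusted p = 0.0265). Leaving out 1 library moved the macrophage median to -0.05 (D), -0.18 (E) or -0.22 (H), that of B and plasma cells to -0.22 (I), that of stellate cells to -0.30 (B) and that of cholangiocytes to -0.08 (B) or -0.19 (F or H). The T and NK cell median was -0.84 with a pseudocount of 10, and the cholangiocyte median -0.18. The B and plasma cell median was -0.07 at a minimum mean of 100. With quantile normalization the cholangiocyte median was -0.19, the endothelial median -0.05 and the pericentral median -0.09. Summed over the list, macrophage markers were at 3113 to 4110 normalized counts in sgRosa26 and 2867 to 3658 in sgCcnd1, and T and NK cell markers at 78.7 to 216 and 31.0 to 151. No listed gene of the table was at 0 in all libraries, and the part of these cells in the values of the 9 genes was not tested.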

How the data were processed

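Poly(A) RNA of liver from 9 mice was sequenced. The deposited table holds normalized counts, an expression signal, for 27179 Entrez genes. The submitters' processing notes name Trim Galore 0.6.7, HISAT2 2.2.1, featureCounts 2.0.3, DESeq2 2.11.40.8 and the builds mm10 and GRCm38; settings, annotation and strand use are not given in the sources used here. In each library the deposited values were whole multiples of 1 number (100% within 0.01 of a whole read), so they are reads divided by a size factor, and reads were recovered by division. In library H 1 read was worth 0.9996, so close to 1 that whole multiples show little of the scaling there, and the count fits were therefore also run without H. Columns name a group but no replicate.

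From the table, log2(normalized count + 1) was fitted for 12993 genes with a mean of at least 10 by limma 3.58.1 (R 4.3.3; lmFit, eBayes with trend, two-sided, no covariates), with Benjamini-Hochberg adjustment over all of them and a threshold of 0.05. This scale understates changes of low genes. The labels do not say that replicates are separate animals beyond the title of each. The limma p-values set the difference of the group means against the spread between these samples within groups. Alternatives were edgeR 4.0.16 and DESeq2 1.42.0 on recovered reads, other pseudocounts, filters and scalings, and leaving out each library. Pair correlations were tested by exact permutation within groups.

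The 9 genes and the lists were chosen with earlier results of these data known. Named from each list were genes past the threshold or, with fewer than 3, the 3 with the smallest p; the likeness rule named 3 genes for each of 4 members, and the pair rule the 3 pairs with the smallest p. Other pairs, and genes beyond the 3 of a list, were named after their values were seen. Gene positions and exon lengths are from GENCODE vM21 (GRCm38). The scripts were tested on simulated data. In 1 set of simulated counts, 100 genes were changed 2-fold and 100 were changed 1.5-fold. False calls were 8 of 125 by limma, 7 of 127 by edgeR and 24 of 152 by DESeq2. Of the 1.5-fold changes limma recovered 42%, edgeR 44% and DESeq2 51%. A call by DESeq2 alone is therefore less sure than its adjusted p states, and an absent call does not show an absent change. Counting errors given from depth cover counting alone.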

Additional observations from a re-analysis of the deposited data

Results flagged for a closer look

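Of 20 groups of values examined for a library far from the others (the 9 genes and Ccnd1 in each group), 1 held such a library, where chance flags about 1 in 20. Mdh1 was at 6086 normalized counts in sgRosa26 library A, against 7479 to 7633 in the other controls. Without library A the log2 fold change of Mdh1 was 0.08 in place of 0.16.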

How the results depend on the processing

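No paired analysis was possible because no column name holds a replicate number. The direction of 7 of the 9 genes held in all 21 alternatives, and that of Foxo1 and G6pc changed only without library D. Where limma called 0 genes higher and 1 lower, DESeq2 called 41 and 76, or 16 and 25 once library H was removed. Quantile normalization gave 2 lower, and edgeR on 8 libraries, H removed, gave 0. The edgeR and DESeq2 fits lacking H were chosen after seeing the data. Leaving out each library in turn gave 0 to 2 genes lower and 0 higher. Of genes with an unadjusted p under 0.05, 52.4% were lower by limma, 67.3% after scaling to the 75th percentile and 37.5% at a minimum mean of 100. Ccnd1 ranged from -1.11 to -0.96 in log2 fold change over the fits lacking 1 library. Its limma adjusted p was above 0.05, so that it was not called, when B (0.0857), D (0.0558), F (0.0587), H (0.0612) or I (0.0626) was removed. On the 8 libraries other than H, edgeR gave -1.02 (edgeR adjusted p = 0.0560). Why the tools differ was not tested, and DESeq2 left 1010 adjusted p-values undefined. The median of the path enzymes was 0.20 without library I. At a minimum mean of 100 no T and NK cell marker remained.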
